A study of Mus musculus with 12 samples.

Results

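Ribosomal protein mRNAs stood lower in the MIWI immunoprecipitate (IP) than in its input in each of 3 genotypes, including the one without MIWI, and by more than the median gene did. The 60 genes described here encode proteins of the cytosolic ribosome. They were chosen by their Ensembl gene IDs, as mouse Rpl, Rplp, Rps and Rpsa genes with pseudogenes left out, and all 60 are among the 20345 genes listed in the data. The IDs stand without names in the deposited table, and the reference gene table matched 0 of the 60. Single genes are therefore given by ID, no member is assigned to the large or the small subunit, and few IDs are named per comparison.

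MIWI is the mouse PIWI protein that carries pachytene piRNAs, small RNAs made in male germ cells during meiosis. RNA from MIWI IPs and from the matching input of late spermatocytes, depleted of ribosomal RNA, was compared between Miwi ADH/-, Miwi -/- and Miwi +/- animals. In the ADH allele, as known from earlier work, the site that cuts target RNA is mutated, and a Miwi ADH/- animal carries that allele over a null allele. Miwi -/- animals lack the protein, so their IP shows what the procedure recovers without its target, and Miwi +/- animals keep 1 wild-type copy. All 3 genotypes thus carry at least 1 null allele. The sources used here do not give the age of the animals, any pooling of animals or which samples came from sorted cells.

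Each ribosome contains one copy of nearly every ribosomal protein, and cells make these proteins in matched amounts. Their mRNAs are short, abundant and often begin with a tract of pyrimidines (the TOP motif) through which growth signals set their translation. Ribosomal protein genes have given rise to many processed pseudogenes with nearly identical sequence. In spermatocytes, MIWI has been described in complexes with translation factors and mRNAs, which makes mRNAs of the translation machinery a natural group to follow in its IP.

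The labels give 12 samples, 2 in each of 6 groups, but each group has 1 column of values. Values are RPKM, the reads of a gene divided by its length in kilobases and by the column's reads in units of 1000000. No difference below has a replicate check and none carries a p-value. Reads per gene were recovered from the steps of the RPKM values, and the intervals of ratios built on them are exact 95% intervals that cover counting error only. The columns held 3706479, 761525 and 1725558 reads in listed genes for the Miwi ADH/-, Miwi -/- and Miwi +/- IPs, against 2627634, 3810918 and 3918947 for their inputs. The Miwi -/- IP was the shallowest column, with a median of 17 reads per member, against 131 and 51 reads in the Miwi ADH/- and Miwi +/- IPs and 187 to 260 reads in the inputs. The spermatocyte label could not be set against marker genes because the IDs have no names.

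In the inputs the 60 genes covered a wide range of levels. Averaged over the 3 inputs, 24 members stood at 100 RPKM or more, 21 at 10 to under 100 RPKM, 11 at 1 to under 10 RPKM and 4 under 1 RPKM. The highest of these averages, 930 RPKM, was 2099 times the lowest, 0.443 RPKM. The listed levels thus spanned 3 orders of magnitude. The sources used here do not say how reads that match several places were counted, so the level of any single member, and of the lowest ones in particular, is uncertain, since reads can be shared with near-identical copies.

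By mean level over the 6 columns, ENSMUSG00000057322 was the most abundant member. It stood at 587 RPKM in IP and 722 RPKM in input of Miwi ADH/-, 74.8 and 1144 RPKM in those of Miwi -/-, and 256 and 691 RPKM in those of Miwi +/-. ENSMUSG00000057841 came next, with 81.5 and 970 RPKM in IP and input of Miwi ADH/-, 64.0 and 947 RPKM in Miwi -/-, and 68.0 and 874 RPKM in Miwi +/-. These abundant members differed in how much of their input level the IPs kept: the first stood near its input in Miwi ADH/- and far below it in Miwi -/-, while the second was far below its input in all 3 genotypes. The third, ENSMUSG00000025290, had 219 and 958 RPKM in IP and input of Miwi ADH/-, 40.7 and 753 RPKM in Miwi -/-, and 162 and 842 RPKM in Miwi +/-.

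At the other end, ENSMUSG00000061983 was listed at 0 in all 3 IPs, at 1.06 RPKM in the Miwi ADH/- input, at 0.272 RPKM in the Miwi -/- input and at 0 in the Miwi +/- input. ENSMUSG00000031320 was likewise listed at 0 in every IP and stayed below 1 RPKM in the inputs, at 0.905, 0.175 and 0.995 RPKM in the same order. ENSMUSG00000058546 had 0.172 RPKM in the Miwi ADH/- IP and was listed at 0 in the other IPs, with 0.662, 0.767 and 0 RPKM in the inputs. These 3 genes rest on 6 reads or fewer in every column.

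For comparisons across genes, a gene was kept when 2 or more columns reached 1 RPKM, which left 12246 genes and 55 of the 60 members. The 5 members that dropped out were low in every group. Of the 55, 53 had at least 1 RPKM in all 3 inputs, 36 had it in all 6 columns, and 2 had it in inputs only. Kept members ranked high among all kept genes, with a median percentile of 90.5, 87.7 and 89.1 in the Miwi ADH/-, Miwi -/- and Miwi +/- inputs. Their median percentile in the IPs was 79.3, 72.4 and 77.9 in the same order, so they were lower placed within each IP than within its input but still above most genes.

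All 60 members together show the same shift. Their median level was 14.1 RPKM in the Miwi ADH/- IP against 42.5 RPKM in its input, 4.05 against 43.9 RPKM in Miwi -/-, and 11.8 against 41.8 RPKM in Miwi +/-. The 3 inputs were thus close to each other and the 3 IPs were not. In the IPs 6, 13 and 7 members were listed at 0 (Miwi ADH/-, Miwi -/- and Miwi +/-), against 0, 1 and 2 members in the inputs. Among genes that passed the filter described above, 5.45%, 14.5% and 7.27% of members were at 0 in these IPs, against 5.14%, 23.7% and 9.67% of all kept genes. Members at 100 RPKM or more numbered 7, 2 and 5 in the IPs, against 25, 24 and 23 in the inputs. The share of all kept genes at that level was not counted, and the median of all kept genes was also lower in each IP than in its input.

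**Figure D1:**
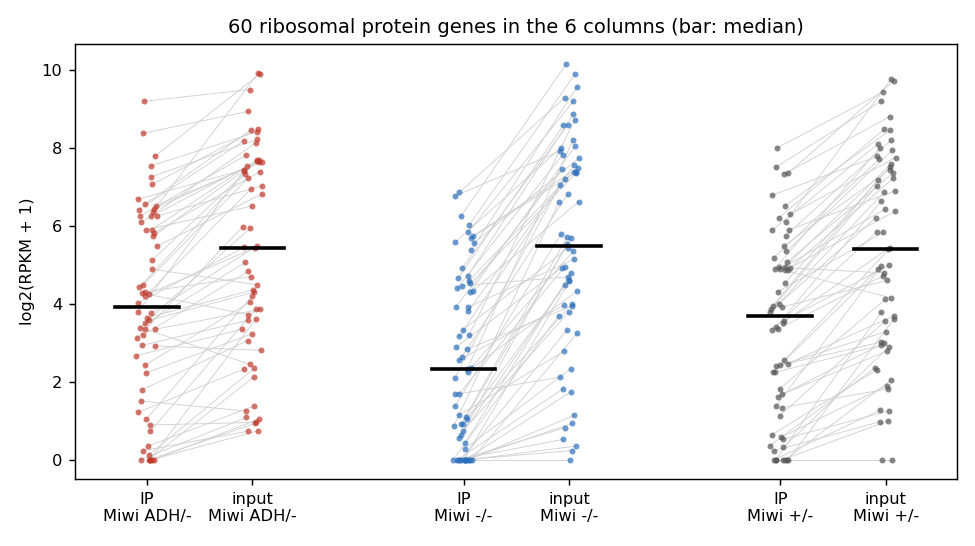
Level of each of the 60 ribosomal protein genes, as log2(RPKM + 1), in the IP and the input of Miwi ADH/-, Miwi -/- and Miwi +/-. Points are genes, grey lines join a gene's values within a genotype and bars are medians; most lines climb towards the input, and the lowest median, 4.05 RPKM, is that of the Miwi -/- IP.

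The share of reads taken by the 60 genes gives a view that does not depend on how columns are scaled to each other. These genes took 0.584% of the reads in listed genes in the Miwi ADH/- IP (95% exact interval 0.577 to 0.592%) and 1.20% in its input (1.18 to 1.21%). In Miwi -/- the shares were 0.433% in the IP (0.418 to 0.448%) and 1.18% in the input (1.17 to 1.19%). In Miwi +/- they were 0.462% in the IP (0.452 to 0.472%) and 1.05% in the input (1.04 to 1.06%).

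By share, the group was therefore 2.05-fold lower in the IP of Miwi ADH/- (2.01 to 2.08), 2.72-fold lower in that of Miwi -/- (2.62 to 2.82) and 2.27-fold lower in that of Miwi +/- (2.22 to 2.33). These intervals do not overlap, but they compare single columns, and a few abundant members weigh most in each sum. By summed RPKM as deposited, the group was 2.73-fold, 9.67-fold and 4.25-fold lower in the same order. The larger spread between genotypes on this scale goes with the lower level of listed genes as a whole in the IPs. The median over kept genes was 5.06, 1.62 and 4.14 RPKM in the IPs, against 6.90, 6.58 and 7.37 RPKM in the inputs. RPKM as deposited is not divided by the reads in listed genes. In Miwi -/-, ENSMUSG00000037805 had 0.553 RPKM from 2 IP reads and 45.5 RPKM from 280 input reads. Between those columns RPKM per read differed by far less than the listed reads, 761525 and 3810918. Folds in deposited RPKM thus hold this column-wide lowering, which is largest in the Miwi -/- IP. The 10 highest members held 61 to 67.1% of the members' summed RPKM in each column. The 2 highest held 30.3% in the Miwi ADH/- IP and 21.3 to 23.2% in the other columns. Folds without the highest members were not computed.

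**Figure D2:**
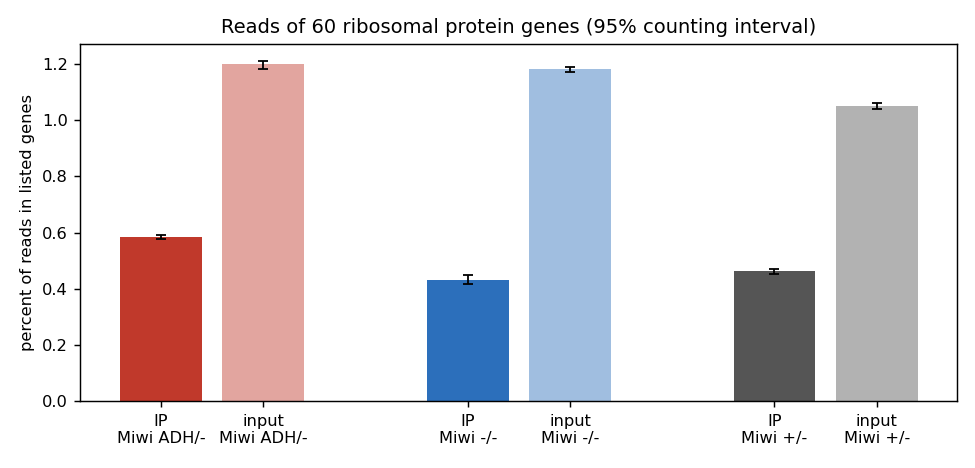
Percent of the reads in listed genes that fell in the 60 ribosomal protein genes, in the IP (dark bars) and the input (light bars) of each genotype, with exact 95% counting intervals. The IP bars stand at 0.584%, 0.433% and 0.462% for Miwi ADH/-, Miwi -/- and Miwi +/-, against 1.20%, 1.18% and 1.05% for the inputs.

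Gene by gene, the IP of Miwi ADH/- held 36 of the 55 kept members at least 2-fold below input on the log2(RPKM + 1) scale, where 25.0% of all kept genes were that low, and it held none at least 2-fold above, where 4.83% of all kept genes were. The median difference, IP minus input, was -1.42 for members and -0.41 for all kept genes. Over all 60 members it was -1.24. Counting intervals lay below equality for 48 members, against 49.1% of all kept genes, and above it for 2, against 16.6%. Intervals narrow with reads, and a member had a median of 382 reads in both columns together, against 164 for all kept genes, so these counts are not at matched depth.

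In Miwi ADH/- the lowest was ENSMUSG00000067274, with 12.9 RPKM in the IP and 169 RPKM in the input, 13.0-fold lower with an interval of 10.7 to 15.9. ENSMUSG00000052146 was at the same difference of -3.60, listed at 0 in the IP with 11.2 RPKM in the input. The highest differences were those of ENSMUSG00000067288, with 9.22 RPKM in the IP and 4.44 RPKM in the input, and of ENSMUSG00000049517, with 18.3 and 12.2 RPKM. The first ratio, 2.07, has an interval of 0.936 to 5.21 that holds equality and rests on 8 input reads. The second, 1.50, has an interval of 1.01 to 2.27.

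The Miwi -/- IP lay furthest below its input: 52 of the 55 members were at least 2-fold lower, against 60.9% of all kept genes, and none was at least 2-fold higher, against 3.67%. The median was -3.26 for members and -1.37 for all kept genes, and -3.07 over all 60 members. Counting intervals lay below equality for 51 members, against 70.0% of all kept genes, and above it for none, against 6.83%, with median reads of 295 for members and 101 for all kept genes.

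ENSMUSG00000003429 had 4.04 RPKM in the Miwi -/- IP and 292 RPKM in its input, 72.3-fold lower with an interval of 39.2 to 151 from 10 IP reads. In the other genotypes it was only a few-fold below input, at 75.0 against 281 RPKM in Miwi ADH/- and 43.8 against 173 RPKM in Miwi +/-. ENSMUSG00000062997 had 0.806 RPKM in the Miwi -/- IP and 97.6 RPKM in its input, a ratio that rests on 2 IP reads and has an interval of 33.3 to 1003-fold. In deposited RPKM the member nearest to its input, apart from one listed at 0 in both columns, was ENSMUSG00000058558. It had 21.1 RPKM in the IP and 24.8 RPKM in the input, a ratio of 0.851 with an interval of 0.654 to 1.10. As a share of listed reads it stood above its input, with 91 of 761525 reads against 182 of 3810918.

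In Miwi +/-, 47 of the 55 members were at least 2-fold lower in the IP, against 40.6% of all kept genes, and none was at least 2-fold higher, against 4.24%. The median was -2.00 for members and -0.77 for all kept genes, and -1.93 over all 60 members. Counting intervals lay below equality for 50 members, against 61.1% of all kept genes, and above it for 1, against 11.2%, with median reads of 370 for members and 144 for all kept genes.

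ENSMUSG00000049517 was lowest in Miwi +/-, listed at 0 in the IP with 12.8 RPKM in the input. ENSMUSG00000057841, the second most abundant member, was 12.9-fold lower in the IP (11.2 to 14.9). Its IP-to-input ratio was of similar size in the other genotypes, 11.9-fold lower (10.8 to 13.2) in Miwi ADH/- and 14.8-fold lower (12.5 to 17.7) in Miwi -/-. The highest were ENSMUSG00000062647, at 28.0 RPKM in the IP and 16.8 RPKM in the input (ratio 1.66, interval 1.27 to 2.18), and ENSMUSG00000058558, at 29.6 and 26.7 RPKM (1.11, 0.901 to 1.36).

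**Figure D3:**
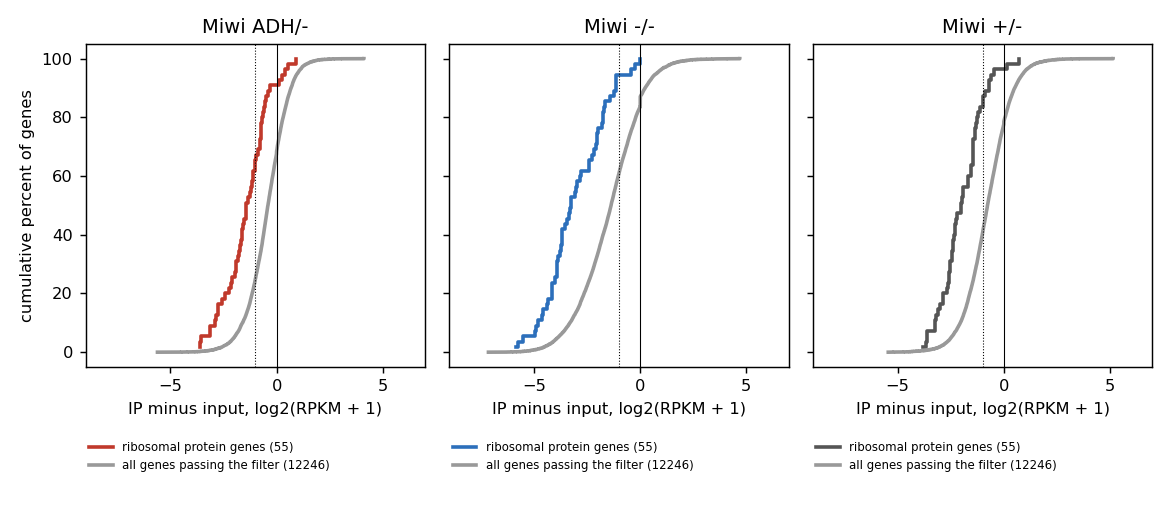
Cumulative percent of genes against IP minus input on the log2(RPKM + 1) scale in each genotype, for the 55 kept ribosomal protein genes (coloured) and all 12246 kept genes (grey). The solid vertical line marks equality and the dotted one a 2-fold lower IP; the coloured curves lie left of the grey ones, with medians of -1.42, -3.26 and -2.00 against -0.41, -1.37 and -0.77.

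The shift was shared by most members across the genotypes, whose IP and input columns are separate. The IP was below the input in all 3 genotypes for 48 of the 55 members, against 53.8% of all kept genes. It was at least 2-fold below in all 3 for 31 members, against 14.4% of all kept genes. Only ENSMUSG00000058558, singled out after its values were seen, was at least 2-fold below its input in none of the genotypes, against 27.1% of all kept genes. It had 18.8 RPKM in the IP and 25.0 RPKM in the input of Miwi ADH/-, with the values of the other genotypes given above.

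Differences can also be taken from the median of all kept genes of each genotype. On that scale 28 members were at least 2-fold lower in the Miwi ADH/- IP, against 13.4% of all kept genes, 36 in the Miwi -/- IP, against 25.0%, and 31 in the Miwi +/- IP, against 15.5%. At least 2-fold higher were 1, 2 and 1 members, against 12.0%, 23.6% and 15.4%. Below the median of all kept genes in all 3 genotypes were 39 of the 55 members, against 25.4% of all kept genes.

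Which members were lowest was only partly the same from genotype to genotype. Across the 55 members the IP-minus-input values of Miwi ADH/- and Miwi +/- had a Pearson correlation of 0.42 (Spearman 0.46), those of Miwi -/- and Miwi +/- 0.47 (0.44) and those of Miwi ADH/- and Miwi -/- 0.30 (0.31). Over all kept genes these were 0.53 (0.54), 0.43 (0.44) and 0.40 (0.40). Genes are not independent replicates, and they share library, depth and length. Levels themselves were ordered much alike, with Pearson correlations between inputs of 0.97, 0.97 and 0.98 across members in the same order. Between IPs they were 0.88, 0.87 and 0.83. Over all kept genes they were 0.92, 0.91 and 0.86 between inputs and 0.87, 0.79 and 0.75 between IPs.

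Gene length and level moved with the IP-minus-input value across all genes, and ribosomal protein genes are short and abundant. The RPKM steps give lengths relative to the median kept gene: the 55 members ran from 0.203 to 1.15 times that length with a median of 0.444, and 52 were shorter than the median gene. In the shortest of 5 length classes of equal size, with 42 members among 2450 genes, the median IP minus input was -1.42 for members and -0.75 for all genes in Miwi ADH/-. It was -3.55 against -1.68 in Miwi -/- and -2.12 against -1.09 in Miwi +/-.

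Level was treated alike. Among the 687 genes with a mean input of 100 RPKM or more, which hold 24 members, the median was -1.67 for members and -0.98 for all genes in Miwi ADH/-, -3.71 against -2.83 in Miwi -/- and -2.36 against -1.55 in Miwi +/-. In the class that is both shortest and at 100 RPKM or more, with 20 members among 298 genes, the medians were -1.67 against -1.10, -3.82 against -3.08 and -2.36 against -1.70 in the same order. Members were thus lower than the median of their class in each genotype. In that last class the members' median differed from that of all genes by -0.57, -0.74 and -0.66, against -1.01, -1.88 and -1.24 over all kept genes. Each class was set on the mean of 3 inputs, of which 1 also enters the difference. The part of length and level in the result was not tested beyond these classes.

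**Figure D4:**
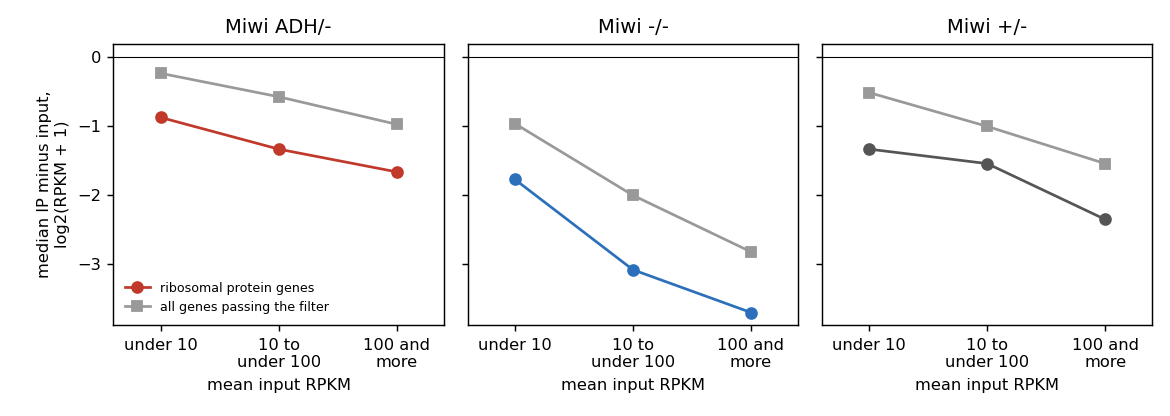
Median IP minus input on the log2(RPKM + 1) scale for genes with a mean input under 10, of 10 to under 100 and of 100 RPKM and more, for kept ribosomal protein genes (circles; 10, 21 and 24 genes) and all kept genes (squares; 7097, 4462 and 687 genes). In each panel both lines descend with level and the circles lie below the squares, at -1.67, -3.71 and -2.36 in the highest class of Miwi ADH/-, Miwi -/- and Miwi +/-.

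Whether recovery in the IP differs with the genotype was asked by taking the difference of the IP-minus-input values. Between Miwi ADH/- and Miwi +/-, the difference had a median of 0.48 for members and 0.38 for all kept genes. The members' median was 0.16 with columns centred on their medians, 0.05 with median-of-ratios scaling and 0.22 with equal column totals. At least 2-fold higher were 16 of the 55 members, against 20.5% of all kept genes, and 5 were at least 2-fold lower, against 7.56%. Relative to the median of all kept genes, 7 members were at least 2-fold higher, against 10.6%, and 7 were at least 2-fold lower, against 13.4%, so the members' counts lay near the background.

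Single members stood apart. ENSMUSG00000049517 had the largest difference, 4.33, with 18.3 RPKM in the Miwi ADH/- IP and a listed 0 in the Miwi +/- IP, at similar inputs of 12.2 and 12.8 RPKM. ENSMUSG00000063316 followed at 3.72, with 6.56 RPKM in the Miwi ADH/- IP and 0 listed in the Miwi +/- IP, against inputs of 5.99 and 11.2 RPKM. On the low side were ENSMUSG00000000740 at -1.75 and ENSMUSG00000044533 at -1.70. ENSMUSG00000044533 had 0.657 RPKM in the IP and 13.5 RPKM in the input of Miwi ADH/-, against 10.8 and 30.9 RPKM in Miwi +/-, and ENSMUSG00000000740 had 1 read in the Miwi ADH/- IP.

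Between Miwi -/- and Miwi +/-, the difference had a median of -0.76 for members and -0.67 for all kept genes. At least 2-fold lower were 23 members, against 39.3% of all kept genes, and 2 were at least 2-fold higher, against 9.56%. Relative to the median of all kept genes, 7 members were at least 2-fold higher, against 20.1%, and 17 were at least 2-fold lower, against 21.4%. The sign of the members' median depends on the scale: it was 0.07 with columns centred on their medians, 0.19 with median-of-ratios scaling and -0.15 with equal column totals.

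ENSMUSG00000003429 was lowest in this comparison at -3.90, with the values given above, and ENSMUSG00000059291 followed at -3.72. The second had 0 RPKM listed in the IP and 23.0 RPKM in the input of Miwi -/-, against 4.35 and 8.76 RPKM in Miwi +/-. Apart from a gene listed at 0 in both Miwi -/- columns, ENSMUSG00000032518 was highest at 1.24, with 2.19 RPKM in the IP and 3.33 RPKM in the input of Miwi -/-, against 0.548 and 3.95 RPKM in Miwi +/-. It rests on 17 and 6 IP reads.

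Between Miwi ADH/- and Miwi -/-, the difference had a median of 1.61 for members and 1.06 for all kept genes. The members' median was 0.46 with centred columns, 0.17 with median-of-ratios scaling and 0.65 with equal column totals. Among genes with a mean input of 100 RPKM or more, the medians were 1.70 for members and 1.67 for all genes. They were 1.79 and 1.89 in the class that is also shortest, and 1.83 and 1.06 in the shortest length class as a whole. At least 2-fold higher were 35 members, against 51.9% of all kept genes, and 2 were at least 2-fold lower, against 7.30%. Relative to the median of all kept genes, 18 members were at least 2-fold higher, against 20.1%, and 7 were lower, against 21.7%. ENSMUSG00000049517 was again highest, at 4.48, with 0.460 RPKM in the Miwi -/- IP from 1 read and 21.3 RPKM in its input. The lowest was ENSMUSG00000044533 at -2.00, with 6.11 RPKM in the IP and 14.5 RPKM in the input of Miwi -/-. The comparisons share columns with each other, so their members cannot be counted as separate support.

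Ordered by genotype, the IP-minus-input value was highest in Miwi ADH/-, intermediate in Miwi +/- and lowest in Miwi -/- for 34 of the 55 members, against 46.0% of all kept genes. It was highest in Miwi ADH/- for 39 members, against 59.1% of all kept genes, and lowest in Miwi -/- for 43 members, against 66.4%. Among the IP levels themselves, that of Miwi ADH/- was the highest for 39 members, against 54.9% of all kept genes, and that of Miwi -/- was the lowest for 40 members, against 67.8%. With each IP set against its own median over kept genes, the Miwi -/- level was the lowest for 19 members, against 31.2%. Taken from each genotype's median of all kept genes, it was lowest in Miwi -/- for 28 members, against 41.6%. The Miwi -/- IP also had the fewest reads and the smallest number of members with any read, and the part of depth in these counts was not tested.

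The inputs show the ribosomal protein mRNAs of the cells before IP, and there the genotypes were close. In bulk RNA, fewer cells of a type and less RNA per cell cannot be told apart. Within 2-fold in all 3 pairwise comparisons of inputs were 43 of the 55 members (78.2%), against 70.4% of all kept genes. The members' share lay near that of all kept genes and rests on more reads per gene, so this closeness is not particular to them. By share of listed reads, the 60 genes were 1.14 times as high in the Miwi ADH/- input as in the Miwi +/- input (1.12 to 1.16) and 1.12 times as high in the Miwi -/- input as in the Miwi +/- input (1.10 to 1.14).

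Between the Miwi ADH/- and Miwi +/- inputs the median log2 difference was 0.06 for members, or -0.01 with equal column totals, and -0.16 for all kept genes. All genes ran from 0.15 in the shortest length class to -0.28 in the longest. In the shortest class, with 42 members, the members' median was 0.07 and thus below that of all genes. Among genes with a mean input of 100 RPKM or more it was 0.10 for members and -0.07 for all genes. At least 2-fold higher were 2 of the 55 members, against 7.80% of all kept genes, and 3 were at least 2-fold lower, against 7.42%. ENSMUSG00000037805 was highest, with 60.6 RPKM in Miwi ADH/- and 25.4 RPKM in Miwi +/-, a ratio of 2.38 (1.96 to 2.90). ENSMUSG00000059291 had 19.5 against 8.76 RPKM, a ratio of 2.23 (1.49 to 3.37). ENSMUSG00000008668 was lowest, with 15.5 RPKM in Miwi ADH/- against 56.2 RPKM in Miwi +/-, 3.63-fold lower (2.64 to 5.10). ENSMUSG00000028495 had 0.666 RPKM from 3 reads in Miwi ADH/-, against 3.09 RPKM in Miwi +/-.

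Between the Miwi -/- and Miwi +/- inputs the median was 0.14 for members and -0.02 for all kept genes. At least 2-fold higher were 4 members, against 4.47% of all kept genes, and 3 were at least 2-fold lower, against 10.6%. Counting intervals lay above equality for 25 members, against 22.3% of all kept genes, and below it for 7, against 26.6%. In the comparison of Miwi ADH/- with Miwi +/- they lay above for 16 members, against 20.0%, and below for 13, against 35.6%. In that of Miwi ADH/- with Miwi -/- they lay above for 10, against 21.7%, and below for 19, against 36.5%. Members had medians of 527 to 641 reads in 2 inputs together, against 153 to 182 for all kept genes. ENSMUSG00000017404 was highest, with 11.9 RPKM in Miwi -/- against 4.12 RPKM in Miwi +/-, a ratio of 2.89 (1.68 to 5.17). ENSMUSG00000059291 had 23.0 RPKM, 2.62 times its Miwi +/- level (1.81 to 3.87), and was thus higher in both mutant inputs, which share the Miwi +/- column. The lowest members, ENSMUSG00000050621 and ENSMUSG00000030432, had 0 and 9 reads in the Miwi -/- input, against 7 and 24 in the Miwi +/- input.

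Between the Miwi ADH/- and Miwi -/- inputs the median was -0.12 for members, or 0.07 with median-of-ratios scaling, and -0.18 for all kept genes. In the shortest length class it was -0.30 for members and 0.15 for all genes. Among genes with a mean input of 100 RPKM or more it was -0.03 and -0.17. At least 2-fold higher were 2 members, against 12.6% of all kept genes, and 2 were at least 2-fold lower, against 6.54%. ENSMUSG00000008668 was lowest here too, with 15.5 RPKM in Miwi ADH/- against 51.2 RPKM in Miwi -/-, 3.31-fold lower (2.39 to 4.67). ENSMUSG00000007892, an abundant member, had 184 RPKM in Miwi ADH/- against 383 RPKM in Miwi -/-, 2.08-fold lower (1.88 to 2.31), with 257 RPKM in Miwi +/-. In the opposite direction, ENSMUSG00000058600 had 90.0 RPKM in Miwi ADH/- against 42.4 RPKM in Miwi -/-, a ratio of 2.12 (1.82 to 2.49), with 85.1 RPKM in Miwi +/-. The 3 input comparisons share columns in pairs, and without replicate values the spread between animals is unknown.

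**Figure D5:**
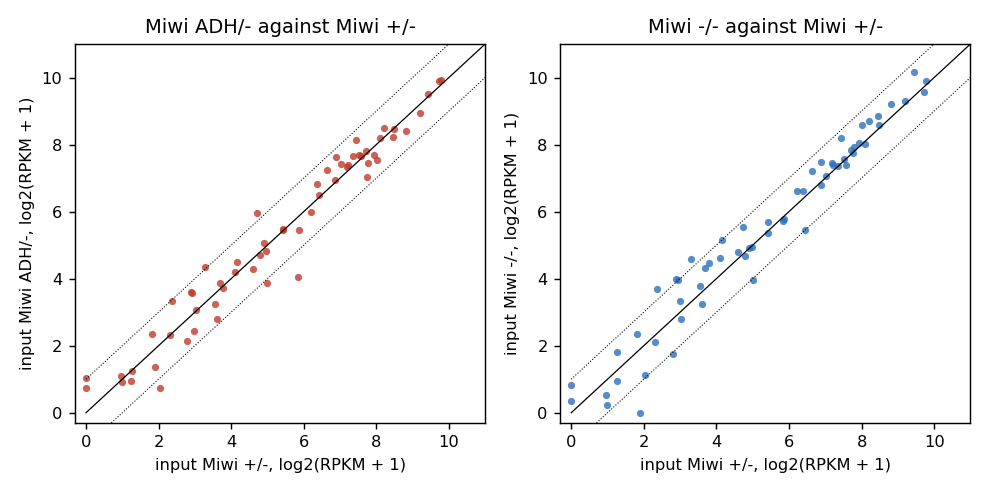
Input level of the 60 ribosomal protein genes in Miwi ADH/- (left, vertical axis) and in Miwi -/- (right, vertical axis) against that in Miwi +/- (horizontal axes), as log2(RPKM + 1). The solid line marks equality and the dotted lines 2-fold differences on this scale; most points lie between the dotted lines, and the point furthest below the line on the left is ENSMUSG00000008668, at 15.5 RPKM in Miwi ADH/- against 56.2 RPKM in Miwi +/-.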

How the data were processed

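RNA-seq of MIWI IPs and inputs was analysed in 6 groups of 2 samples per the labels. The authors deposited RPKM in 1 column per group; per the file headers only the Miwi +/- columns are called RPKM, and the other 4 columns, whose values step alike, were taken to hold the same unit. The sources used here do not state pooling, the counting tool or the annotation. The submitters' processing notes name TopHat, Bowtie and mm9. Which columns were pooled or single affects whether a value stands for 1 or 2 samples.

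Models across replicates could not be run. Values were compared as log2(RPKM + 1), with a pseudocount of 1, over genes that reached 1 RPKM in 2 or more columns, and genes past 2-fold were counted. This scale understates differences of low genes. For each gene, reads were recovered from the largest step that divides its values evenly after scaling for depth (tolerance 0.002 reads, plus a relative 1e-07), and 100% of the 17452 genes with values in more than 1 column came out whole. With values in 2 columns this can happen by chance, and the 2893 genes with 1 value were given 1 read. On simulated tables all reads were right for 97.0% of 12233 kept genes and 94.7% of 57 kept members. In a simulated comparison of the Miwi ADH/- and Miwi +/- inputs, the count took in 94.0% of 50 genes raised 4-fold, 76.6% of 47 lowered 4-fold, 10.2% of 49 raised 2-fold, 44.9% of 49 lowered 2-fold and 1.04% of 12038 unchanged genes. The simulated reads hold counting error only, so 1.04% is not a rate of false calls for these columns. Unchanged genes were set equal by listed reads and not by RPKM, which bears on the raised and lowered shares. Ratio intervals are exact (Clopper-Pearson, given the summed reads); PCR copies are not independent molecules.

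The members and lists were chosen with earlier results of these data known. Lists of other translation genes and cell-type markers gave no values, and no sequences are shown, because the IDs have no names. The rule for named genes took up to 5 members at each end of a comparison; at most 2 are named for that reason. Python 3.11.15, numpy 2.4.6, pandas 2.3.3, scipy 1.17.1 and matplotlib 3.10.9 were used.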

Additional observations from a re-analysis of the deposited data

Results flagged for a closer look

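In 2 members the IP-to-input ratio of RPKM as deposited lay on opposite sides of equality in different genotypes. Counting intervals excluded equality on both sides. The difference was not tested across replicates. The share of all kept genes with such a reversal was not counted, so the 2 members cannot be called unusual. ENSMUSG00000062647 had a ratio of 1.34 in Miwi ADH/- (1.05 to 1.72), of 0.41 in Miwi -/- (0.292 to 0.567) and of 1.66 in Miwi +/- (1.27 to 2.18). Its levels were 28.7 RPKM in the IP and 21.4 RPKM in the input of Miwi ADH/-, 14.1 and 34.3 RPKM in Miwi -/-, and 28.0 and 16.8 RPKM in Miwi +/-. The reversal of this member depends on the deposited scale. As a share of listed reads it stood above its input in Miwi -/- too. It had 47 of 761525 reads in that IP and 195 of 3810918 in the input. ENSMUSG00000049517 had a ratio of 1.50 in Miwi ADH/- (1.01 to 2.27), of 0.0215 in Miwi -/- (0.000539 to 0.124, from 1 IP read) and of 0 in Miwi +/- (up to 0.0974, from 0 IP reads).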

How the results depend on the processing

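Of 54 medians recomputed under 6 alternatives (pseudocount 0.1, no filter, at least 10 RPKM in 2 columns, columns centred on their median, median-of-ratios scaling and equal column totals), 4 had the other sign. In 2 of these the reported value was itself smaller than the counting error of a typical member: the inputs of Miwi ADH/- minus Miwi +/- gave -0.01 with equal totals, and those of Miwi ADH/- minus Miwi -/- gave 0.07 with median-of-ratios scaling. The other 2 are the values for Miwi -/- minus Miwi +/- given next, and 12 more moved by at least that error. With columns centred on their medians, IP minus input was -1.04, -1.73 and -1.30 in Miwi ADH/-, Miwi -/- and Miwi +/-, and the difference of these values was 0.07 for Miwi -/- minus Miwi +/- and 0.46 for Miwi ADH/- minus Miwi -/-. With median-of-ratios scaling they were -0.99, -1.61, -1.32, 0.19 and 0.17 in the same order. With equal column totals IP minus input was -0.81, -1.93 and -1.30. On that scale Miwi -/- minus Miwi +/- kept its sign at -0.15, and Miwi ADH/- minus Miwi -/- was 0.65. Each of these 3 settings rescales whole columns. The members' median IP minus input less that of all genes tested ran from -1.04 to -0.86 in Miwi ADH/-, -2.51 to -1.37 in Miwi -/- and -1.60 to -1.23 in Miwi +/- over the 7 settings. For Miwi -/- minus Miwi +/- it ran from -0.51 to 0.26.

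At least 2-fold lower in the IP were 36 members as reported and 23 with equal totals in Miwi ADH/- (25.0% and 11.8% of all genes), 52 and 34 with centred columns in Miwi -/- (60.9% and 22.0%), and 47 and 31 with centred columns in Miwi +/- (40.6% and 17.2%). By IP minus input, 35 members were at least 2-fold higher in Miwi ADH/- than in Miwi -/- (51.9% of all genes), and 17 with centred columns (18.1%), 18 with median-of-ratios scaling (26.8%) and 21 with equal totals (35.2%). At least 2-fold higher in Miwi ADH/- than in Miwi +/- were 16 (20.5%), and 8 (11.8%), 8 (11.7%) and 9 (15.3%) in the same order. At least 2-fold lower in Miwi -/- than in Miwi +/- were 23 (39.3%), 14 with centred columns (18.0%) or median-of-ratios scaling (26.2%), and 20 with equal totals (31.4%). Among the 108 recomputed counts, 70 stayed within 1.5 times and 38 did not.

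No paired analysis was possible because each group has 1 column with no replicate number, so neither a replicate block nor leaving out a replicate could be run. The Miwi -/- IP had 761525 reads in listed genes and a median of 17 per member, which limits the precision of its ratios.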
